A study of Mus musculus with 6 samples.

Results

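Endophilins are proteins that bend membrane. Their measured transcripts in mouse oligodendrocyte precursor cells are described here together with those of the amphiphysins, dynamins and the phosphatase synaptojanin 1 that work beside them. The group held 10 genes of the 19321 that the array's annotation names, and it was matched by gene symbol: the endophilin A genes Sh3gl2, Sh3gl1 and Sh3gl3, the endophilin B genes Sh3glb1 and Sh3glb2, the amphiphysin genes Amph and Bin1, the dynamin genes Dnm1 and Dnm3, and Synj1. They were covered by 11 probes, 1 for each gene and 2 for Dnm3. The group was chosen by the measured log2 intensities of knockdown against control on these same 6 arrays, in which Sh3gl3 had one of the largest decreases, together with its gene family. The members' differences are therefore given as values with their error and carry no test of their own.

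The cells came from forebrains of Jcl:ICR mouse embryos at stage E15.5 and were kept with the mitogens FGF2 and PDGF-AA. The control group (n = 3) received a control retrovirus and the knockdown group (n = 3) a retrovirus against the chromatin remodeller gene Chd7, and RNA was taken 3 days after infection. Every sample had a one-colour array to itself, so 6 arrays limit the precision of every value. The labels name neither the knockdown sequence nor whether replicates were separate cultures, so errors and p-values cover only the spread among these arrays, possibly a technical one.

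The Chd7 probe that represents the gene read 9.44, 9.20 and 9.47 on the log2 intensity scale on control arrays 1 to 3, against 8.54, 8.44 and 8.48 on knockdown arrays 1 to 3 (log2 fold change -0.88, SE 0.0859), or 54.3% of control. A dimmer Chd7 probe read 7.68 on average in the controls and 7.19 in the knockdown (-0.48, SE 0.0676), or 71.5%. Median raw signals were 83.4 to 89.4, against detection limits of 60.6 to 64.0 set from the blank spots, and 87.0% to 89.8% of probes exceeded the limit. Of 7 precursor markers tested, 6 fell and 1 did not pass in limma at an adjusted p below 0.05, where 5.15% of all genes fell. Their mean log2 intensity was 9.43 to 9.58 in controls and 8.84 to 8.90 in the knockdown. Of 10 neuron markers 4 fell and 6 did not pass, with means of 7.03 to 7.20 and 6.86 to 7.05. The 7 astrocyte, 6 microglia, 4 vascular and 7 myelinating oligodendrocyte markers tested held 0 genes that passed in limma, with 3, 0, 0 and 1 at an unadjusted p below 0.05, which 24.6% of all genes tested had. The 1 myelinating marker was Mog, at 0.24 (adjusted p = 0.137) with overlapping groups, and at 0.05 on a dimmer probe. The 3 astrocyte markers were Gjb6 (0.19), Aldoc (-0.18) and Slc1a2 (-0.47, with 0.09 on a dimmer probe). In bulk RNA, fewer cells of a type and less RNA per cell cannot be told apart.

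Endophilins carry a curved N-BAR domain that senses and shapes membrane tubes and an SH3 domain that recruits dynamin and synaptojanin. Dynamin cuts the neck of a budding vesicle, and synaptojanin removes phosphates from phosphoinositides so that the clathrin coat is shed. The endophilin A proteins also serve a clathrin-independent route that takes up activated receptors, and the endophilin B proteins act on autophagosomes, mitochondria and other inner membranes. Endophilin A3, the product of Sh3gl3, is known mainly from brain and testis.

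Of the 10 genes, Sh3gl3 fell and 9 did not pass the threshold of adjusted p below 0.05 in limma, where 9.64% of all 17390 genes tested passed (5.15% as lower). Since the group was chosen with this contrast known, nothing is read from that count. All 11 probes exceeded the detection limit on all 6 arrays and were tested. The median log2 fold change of the 10 genes was -0.03, against 0.00077 over all genes tested. The knockdown and control arrays did not overlap for 3 of the 10 (Sh3gl3, Sh3gl2 and Sh3glb1), beside 29.9% of all genes tested.

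Sh3gl3, the endophilin A3 gene, had log2 intensities of 8.81, 8.74 and 8.93 on control arrays 1 to 3, against 7.55, 7.62 and 7.64 on knockdown arrays 1 to 3. Every knockdown array lay more than a log2 unit below every control array. The mean fell from 8.83 ± 0.097 (SD, n = 3) to 7.60 ± 0.051 (SD, n = 3). This log2 fold change of -1.22 (SE 0.0696) left 42.9% of the control signal. Before normalization the spots read 432, 444 and 513 on control arrays 1 to 3, against 206, 190 and 217 on knockdown arrays 1 to 3, on average 7.51 and 3.23 times the detection limit. The signal thus stood well clear of the blank spots in both groups. In the authors' own processed values, which subtract more background, Sh3gl3 read 302, 288 and 349 on control arrays 1 to 3, against 106, 109 and 108 on knockdown arrays 1 to 3, or 34.7% of control (log2 fold change -1.53). Between samples of the same replicate number the log2 difference was -1.26, -1.11 and -1.29. Within the arrays that shared each of 2 sets of scanner gain slopes it was -1.13 and -1.36.

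Sh3gl2 and Sh3gl1 are the other endophilin A genes, the first best known for synaptic vesicle recycling in neurons and the second made in most tissues. Sh3gl2 read 7.25, 7.15 and 6.99 on control arrays 1 to 3, against 6.93, 6.99 and 6.94 on knockdown arrays 1 to 3. The groups did not overlap, but control replicate 3 and knockdown replicate 2 nearly met. The log2 fold change was -0.18 (SE 0.068, unadjusted 95% interval -0.33 to -0.02), or 88.5% of control, and it did not pass over all genes. Without control replicate 3, its lowest control, it was -0.24 and passed, and it passed in no other setting tried. The group was chosen with this contrast known, so nothing is read from these calls or the interval. In the authors' processed values 80.3% remained. Over the arrays of the second gain set the difference was -0.06, so its size depended on which arrays were compared.

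Sh3gl1 read 8.57, 8.70 and 8.47 on control arrays 1 to 3, against 8.63, 8.76 and 8.68 on knockdown arrays 1 to 3. The groups overlapped, since control replicate 2 lay above knockdown replicates 1 and 3. Its log2 fold change was 0.11 (SE 0.0782, interval -0.07 to 0.29), so a decrease of the size seen for Sh3gl3 lay far outside its interval, while a rise of up to 0.29 did not. Its raw signal averaged 6.37 times the detection limit in the controls and 6.65 times in the knockdown. Sh3gl3 and Sh3gl1 were thus both measured clear of background, with fitted differences of -1.22 and 0.11.

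**Figure D1:**
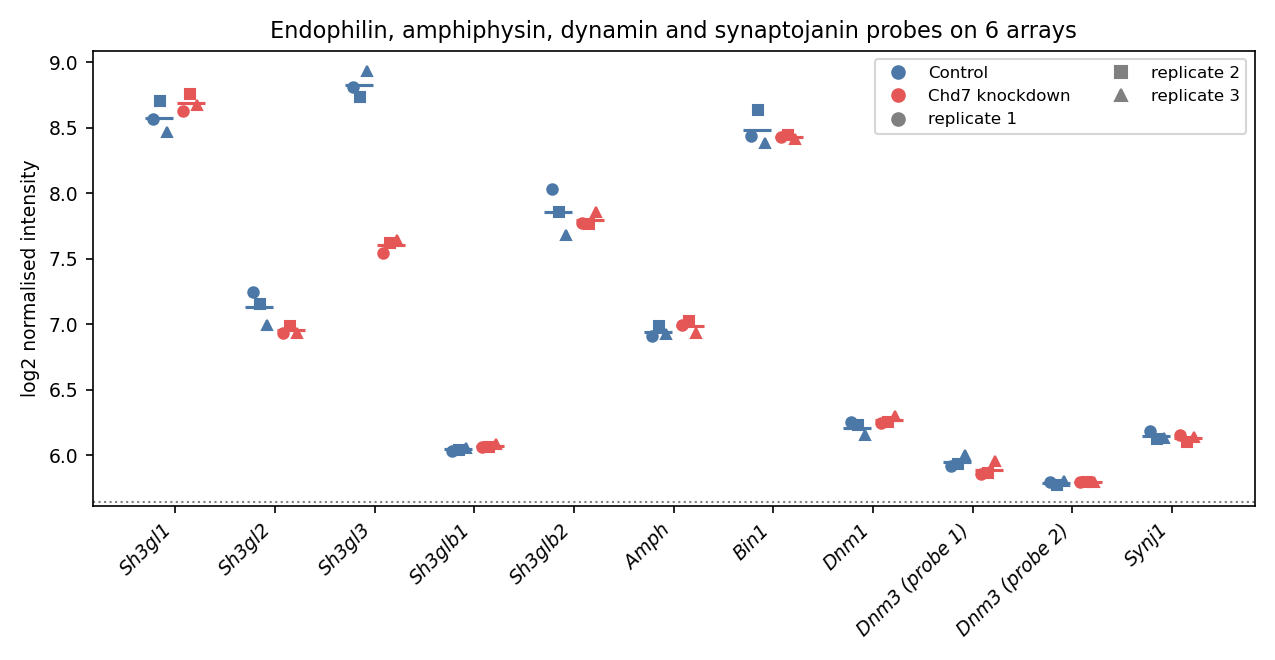
Log2 normalised intensity (vertical axis) of the 11 probes on each of 6 arrays, with blue for control, red for Chd7 knockdown, a symbol for each replicate number, short lines for group means and a dotted line at 5.65, the lowest value on the scale. Sh3gl3 is the only probe plotted whose groups are separated by more than a log2 unit, and the Sh3glb1, Dnm1, Dnm3 and Synj1 probes lie near the lowest value. Heights of different probes are not comparable.

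The 250 bases before the RefSeq start sites of the 3 endophilin A genes are shown because the most changed gene and its closest relatives can be set side by side in them. They are from build GRCm38.p6, written 5′ to 3′ on the strand of the gene, and capitals mark AACAAT, a core that SOX factors can bind (searched on both strands, as was ACAAAG, another SOX core).
Sh3gl3, chr7:82174546-82174795, plus strand: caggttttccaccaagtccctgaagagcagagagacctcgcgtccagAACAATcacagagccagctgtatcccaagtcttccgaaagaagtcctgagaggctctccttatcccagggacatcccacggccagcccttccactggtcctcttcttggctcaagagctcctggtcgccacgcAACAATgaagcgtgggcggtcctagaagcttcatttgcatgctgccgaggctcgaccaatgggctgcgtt
Sh3gl2, chr4:85205206-85205455, plus strand: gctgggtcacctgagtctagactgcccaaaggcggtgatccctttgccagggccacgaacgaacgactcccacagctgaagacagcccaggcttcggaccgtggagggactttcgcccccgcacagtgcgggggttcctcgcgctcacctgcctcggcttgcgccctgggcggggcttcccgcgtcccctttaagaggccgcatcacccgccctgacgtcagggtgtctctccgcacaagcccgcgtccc
Sh3gl1, chr17:56036660-56036909, minus strand: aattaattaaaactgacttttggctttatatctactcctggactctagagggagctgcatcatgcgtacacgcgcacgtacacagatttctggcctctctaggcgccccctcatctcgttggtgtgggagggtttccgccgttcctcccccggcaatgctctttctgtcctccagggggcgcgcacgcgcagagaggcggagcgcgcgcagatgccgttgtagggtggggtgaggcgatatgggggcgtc
The start site listed for Sh3gl3 lies 988 bases inside the outer end of its RefSeq gene, whereas those used for Sh3gl2 and Sh3gl1 are at that end (0 bases), so the region before the outermost Sh3gl3 start was not examined. The Sh3gl3 window held AACAAT 2 times, starting 203 and 70 bases before the start site, and the windows of Sh3gl2 and Sh3gl1 held neither core. Of 32851 windows of the same length at all listed start sites, 9.42% held AACAAT and 16.5% held ACAAAG. Of the 9 members with a window, Dnm3 also had 1 AACAAT match, and none had ACAAAG. The Sh3gl3 window also held 1 CCAAT, a letter run found in 33.8% of all windows, and 2 matches to the E-box CANNTG, found in 66.2%. It had 11 CpG pairs, against 22 in Sh3gl2 and 20 in Sh3gl1 and a median of 6 over all windows. The motifs were chosen after the sequences were seen, and a match is a run of letters and not a measured binding site. Bin1 had no window in the table.

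The endophilin B genes are more distant relatives. Sh3glb1 encodes endophilin B1, also called Bif-1, which binds the autophagy proteins UVRAG and Beclin 1. Its probe read 6.03, 6.04 and 6.06 on control arrays 1 to 3, against 6.07, 6.06 and 6.09 on knockdown arrays 1 to 3. The groups did not overlap, yet the log2 fold change was only 0.03 (SE 0.0221, interval -0.02 to 0.08). The raw signal was 1.19 times the detection limit in the controls, where the added offset of 50 shrinks any change. In the authors' values the spots read 10, 11 and 11 and then 12, 11 and 12, or 109% of control.

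Sh3glb2, the endophilin B2 gene, read 8.03, 7.86 and 7.68 on control arrays 1 to 3, against 7.78, 7.77 and 7.85 on knockdown arrays 1 to 3. All 3 knockdown arrays lay inside the range of the controls. The log2 fold change was -0.06 (SE 0.0875, interval -0.26 to 0.14), and its sign turned without control replicate 1 (0.03). The control SD of 0.18 was the largest among the 11 probes, beside a knockdown SD of 0.048.

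Amphiphysins pair an N-BAR domain with an SH3 domain as endophilins do. Amph, the neuronal form, read 6.91, 6.99 and 6.93 on control arrays 1 to 3, against 6.995, 7.03 and 6.93 on knockdown arrays 1 to 3 (log2 fold change 0.04, SE 0.0498). Bin1, amphiphysin 2, which shapes muscle T-tubules and is also abundant in oligodendrocytes, read 8.44, 8.64 and 8.38 on control arrays 1 to 3, against 8.43, 8.45 and 8.42 on knockdown arrays 1 to 3 (log2 fold change -0.05, SE 0.0767). The groups of both genes overlapped. The Bin1 signal averaged 5.99 times the detection limit in the controls and the 95% interval ran from -0.23 to 0.12, so this probe was bright enough to show a shift as large as that of Sh3gl3. The sign of the Bin1 value turned without control replicate 2 (0.02), the highest of its 3 controls.

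Dynamin 1 is the main neuronal dynamin and dynamin 3 a form of neurons and testis. Dnm1 read 6.25, 6.23 and 6.15 on control arrays 1 to 3, against 6.25, 6.26 and 6.30 on knockdown arrays 1 to 3, with overlapping groups (log2 fold change 0.06, SE 0.0351). The brighter Dnm3 probe read 5.92, 5.93 and 6.003 on control arrays 1 to 3, against 5.86, 5.86 and 5.95 on knockdown arrays 1 to 3 (-0.06, SE 0.0316). The other Dnm3 probe read 5.79, 5.77 and 5.80 and then 5.80, 5.80 and 5.80 (0.0065, SE 0.0146). The groups overlapped on all 3 probes. The raw signals lay at 1.32, 1.12 and 1.02 times the detection limit in the controls. In the authors' values, where the brighter Dnm3 probe read 7, 7 and 9 on control arrays 1 to 3, against 5, 5 and 7 on knockdown arrays 1 to 3, its log2 fold change was -0.38, and this also did not pass.

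Synj1, the phosphoinositide phosphatase recruited by endophilin, read 6.19, 6.13 and 6.13 on control arrays 1 to 3, against 6.16, 6.10 and 6.14 on knockdown arrays 1 to 3. The groups overlapped, and the log2 fold change was -0.02 (SE 0.0288, interval -0.08 to 0.05). Its control signal was 1.27 times the detection limit. For Sh3glb1, Dnm1, Dnm3 and Synj1 the scale is compressed near the blank level, so a narrow interval there does not limit the change in RNA as it does for Sh3gl1 or Bin1.

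**Figure D2:**
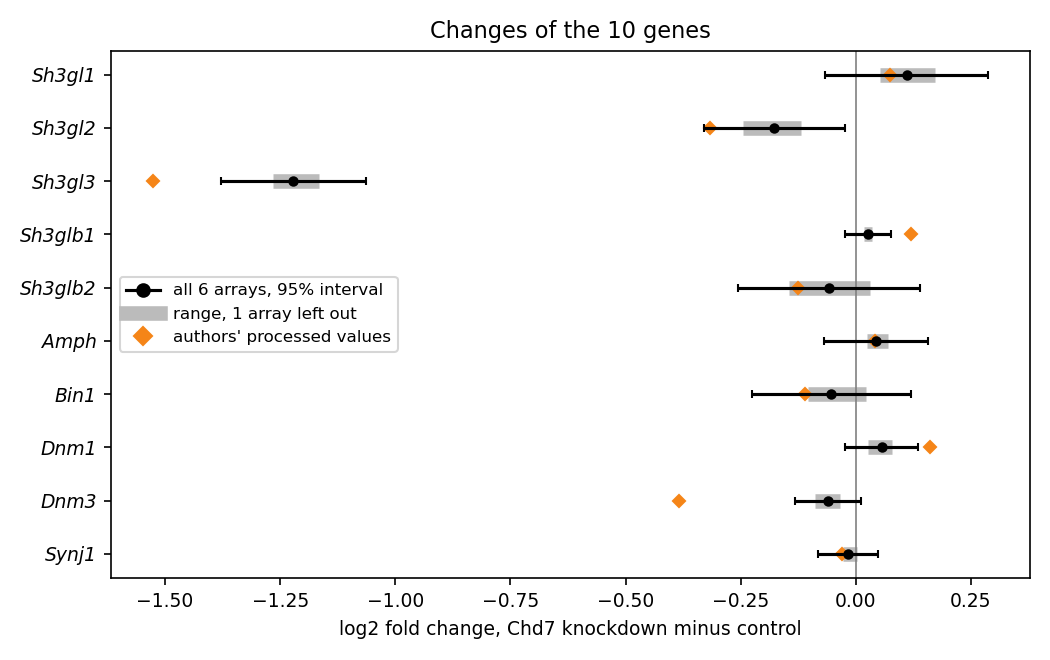
Log2 fold change, Chd7 knockdown minus control (horizontal axis), of the 10 genes, with black points and 95% intervals from all 6 arrays, grey bars for the range when each array is left out in turn, and orange diamonds for the authors' processed values. Sh3gl3 stands at -1.22 (-1.38 to -1.06) and keeps between -1.27 and -1.17 without any 1 array, while the points of the other 9 genes lie between -0.18 and 0.11.

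The other genes of the endocytic machinery were taken from 5 lists that together held 135 tested genes, of which 6 rose and 7 fell in limma (9.63%, against 9.64% of all genes). With the replicate number as a block 9 rose and 13 fell, among them all 13 genes just counted. The counts of the 5 lists fell to 6 genes or fewer in all when control array 2 or knockdown array 1 or 2 was left out, and were 8 when array 3 of either group was. Median scaling gave 2 that rose and 7 that fell, and the authors' processed values gave the same counts for partly different genes. Snx18 and Sv2a rose under median scaling, but Arhgap29 and Arhgap42 in the authors' values. Of these 2 settings, Cd2ap fell only under median scaling and Snx1 only in the authors' values.

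The largest of the lists held genes of the BAR-domain superfamily, whose members bend membrane or read its curvature. Of 55 other BAR, F-BAR and I-BAR genes tested, 4 rose and 6 fell in limma, beside 4.49% and 5.15% of all genes. The other 45 did not pass, and the median was -0.01. In all 18.2% passed, against 9.64% of all genes. The list was chosen with earlier results of these data known, so nothing is read from this share. At an unadjusted p below 0.05, 5 were higher and 10 lower, against 24.6% of all genes in either direction. With the replicate block 5 genes of this list rose and 6 fell. Fchsd2, whose F-BAR protein promotes actin assembly at clathrin-coated pits, had a mean of 9.16 ± 0.13 (SD, n = 3) in the controls and 8.38 ± 0.035 (SD, n = 3) in the knockdown. It fell by 0.77 on the log2 scale (SE 0.0789, adjusted p = 0.00124) and passed whichever array was left out. Snx6, a sorting nexin of the complex that returns receptors from endosomes, fell by 0.46 (SE 0.066, adjusted p = 0.00433), and likewise passed whichever array was left out. Its partner Snx1 fell by 0.32 (adjusted p = 0.0198) but lost the call when control array 2, knockdown array 1 or knockdown array 2 was left out (adjusted p at most 0.0809). Snx5 and Snx2, which belong to the same complexes and were picked after their values were seen, read 0.06 (SE 0.0836) and -0.04 (SE 0.0946).

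Pstpip2, an F-BAR adaptor gene, fell by 0.24 (adjusted p = 0.00326), and Arhgap10, a gene of the GRAF family, by 0.22 (0.0112), with -0.03 on its dimmer probe. Arhgap42, another GRAF gene, rose by 0.10 (adjusted p = 0.00552), near the lower end of the scale. In the authors' values Arhgap42 read 0.95 and Pstpip2 -1.02. Snx18, a sorting nexin that binds dynamin, rose by 0.23 (adjusted p = 0.022), and Arhgap29, an F-BAR gene, by 0.13 (0.0347). Fer, an F-BAR tyrosine kinase gene, fell by 0.17 (adjusted p = 0.0398) on 1 probe and read 0.04 on a dimmer one. Fnbp1, whose F-BAR protein recruits N-WASP and dynamin, rose by 0.36 (adjusted p = 0.0402). Its dimmer probes read 0.15 and 0.02 (adjusted p = 0.0192 and 0.483 in limma over all probes). Fer and Fnbp1 are named to complete the count, after their values were seen. Of these, Arhgap29 and Fer lost their calls whichever array was left out (highest adjusted p 0.121 and 0.141), Fnbp1 passed in 1 of those 6 fits (highest 0.132), and Snx18 in 2 (highest 0.0716). Under median scaling 1 gene of the 55 rose and 5 fell. Arhgap42 (adjusted p = 0.065), Snx1 (0.069), Arhgap29 (0.0552) and Fnbp1 (0.0992) did not pass there, with their signs kept.

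**Figure D3:**
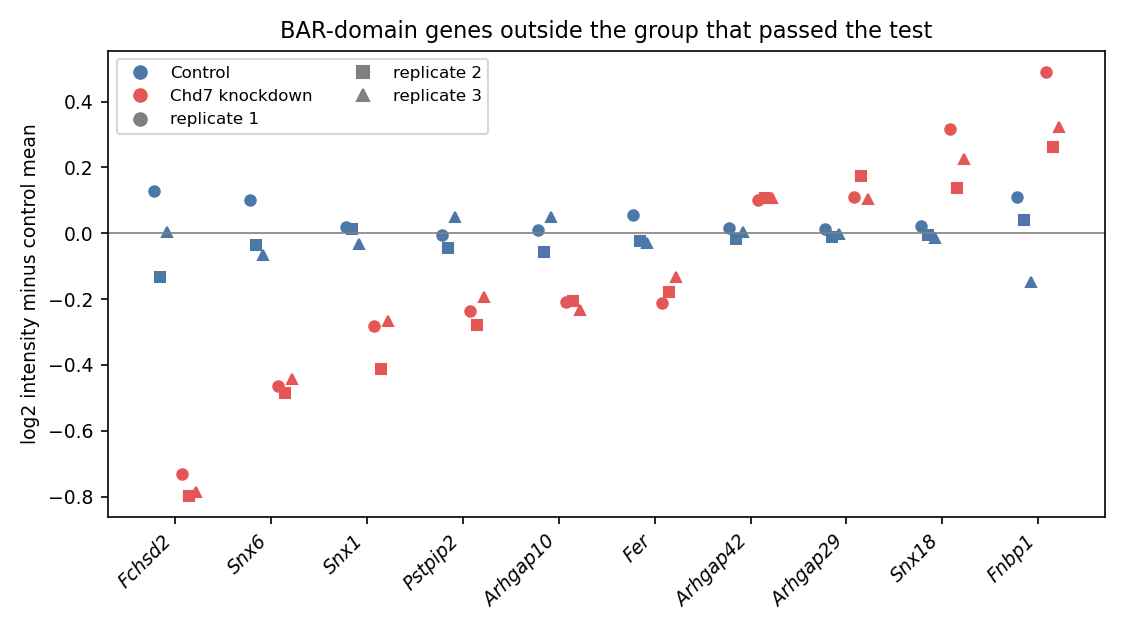
Log2 intensity minus the control mean (vertical axis) on each of 6 arrays for the 10 BAR-domain genes outside the described group that passed, with blue for control, red for knockdown and a symbol for each replicate number. Fchsd2 shows the lowest knockdown values, with a change of -0.77. All 10 genes have groups that do not overlap, as have 29.9% of all genes tested. These 10 were picked by the test on the same arrays, so their separation adds no support.

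Clathrin coats form on adaptors such as AP-2, which pick the cargo. Of 30 clathrin, AP-2 and accessory genes tested, 1 rose, 0 fell in limma and 29 did not pass (3.33% passed, against 9.64% of all genes), with 2 higher and 4 lower at an unadjusted p below 0.05, against 24.6% of all genes in either direction. Aak1, the kinase of the AP-2 medium chain, rose by 0.25 (SE 0.0671, adjusted p = 0.0463), read -0.03 on a dimmer probe, and lost the call whichever array was left out (highest adjusted p 0.152). Snap91, the neuronal clathrin assembly protein AP180, read -0.11 (adjusted p = 0.0626) and passed with the replicate block (0.0345). The clathrin heavy chain gene Cltc and the AP-2 medium chain gene Ap2m1, chosen after their values were seen, read -0.09 (SE 0.0715) and 0.0035 (SE 0.0737). With the block 2 genes of this list rose and 2 fell.

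Of 13 other dynamin, synaptojanin and phosphoinositide enzyme genes 0 passed in limma, against 9.64% of all genes, and 0 passed with the replicate block. At an unadjusted p below 0.05, 1 was higher and 1 lower, against 24.6% of all genes in either direction. The smallest p belonged to Pip5k1a, a kinase that makes the PIP2 on which endocytic adaptors dock (0.17, SE 0.0592, adjusted p = 0.12), and to Ocrl, a phosphatase that removes it (-0.09, SE 0.0321, adjusted p = 0.129). In limma without the variance trend Pip5k1a passed (adjusted p = 0.0451), as it did in no other setting tried. Dnm2, the dynamin of most tissues, read 0.0052 (SE 0.0266), with a signal close to the blank level.

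Of 18 genes for endophilin partners, 1 fell, 0 rose in limma and 17 did not pass (5.56% passed, against 9.64% of all genes). At an unadjusted p below 0.05, 2 were higher and 4 lower, against 24.6% of all genes in either direction. Itch, a ubiquitin ligase that binds endophilin, fell by 0.17 (SE 0.032, adjusted p = 0.0127), and did not pass without knockdown replicate 2 (0.051). Cd2ap, an adaptor between receptors and actin, read -0.20 (adjusted p = 0.0585) and passed with the replicate block (0.0411), with which 4 of the list fell. The partners of endophilin B1 in autophagy, chosen after their values were seen, read 0.30 for Becn1 (adjusted p = 0.0809), with 0.03 on another probe, and -0.15 for Uvrag (0.0769).

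Of 19 synaptic vesicle genes tested, 1 rose, 0 fell in limma and 18 did not pass (5.26% passed, against 9.64% of all genes). At an unadjusted p below 0.05, 1 was higher and 2 lower, against 24.6% of all genes in either direction. Sv2a, a vesicle glycoprotein gene, rose by 0.17 (SE 0.0423, adjusted p = 0.0351) and passed in 2 of the 6 fits that left out 1 array (adjusted p up to 0.12). Syngr1, the synaptogyrin 1 gene, read -0.29 (adjusted p = 0.163) and passed with the replicate block (0.0424), with which 2 genes of this list rose (Sv2a and Syt1, a calcium sensor of vesicle release) and 1 fell. The neuron markers that fell were Elavl4 (-0.60), Dcx (-0.71), Elavl3 (-0.31) and Map2 (-0.12), while of the 6 that did not pass Syt1 read 0.20, Gad1 0.13, Snap25 0.01, Rbfox3 0.00093, Stmn2 -0.02 and Tubb3 -0.20. The 4 neuron markers that fell and the precursor markers moved in the direction of Sh3gl3, and their part in its decrease was not tested.

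**Figure D4:**
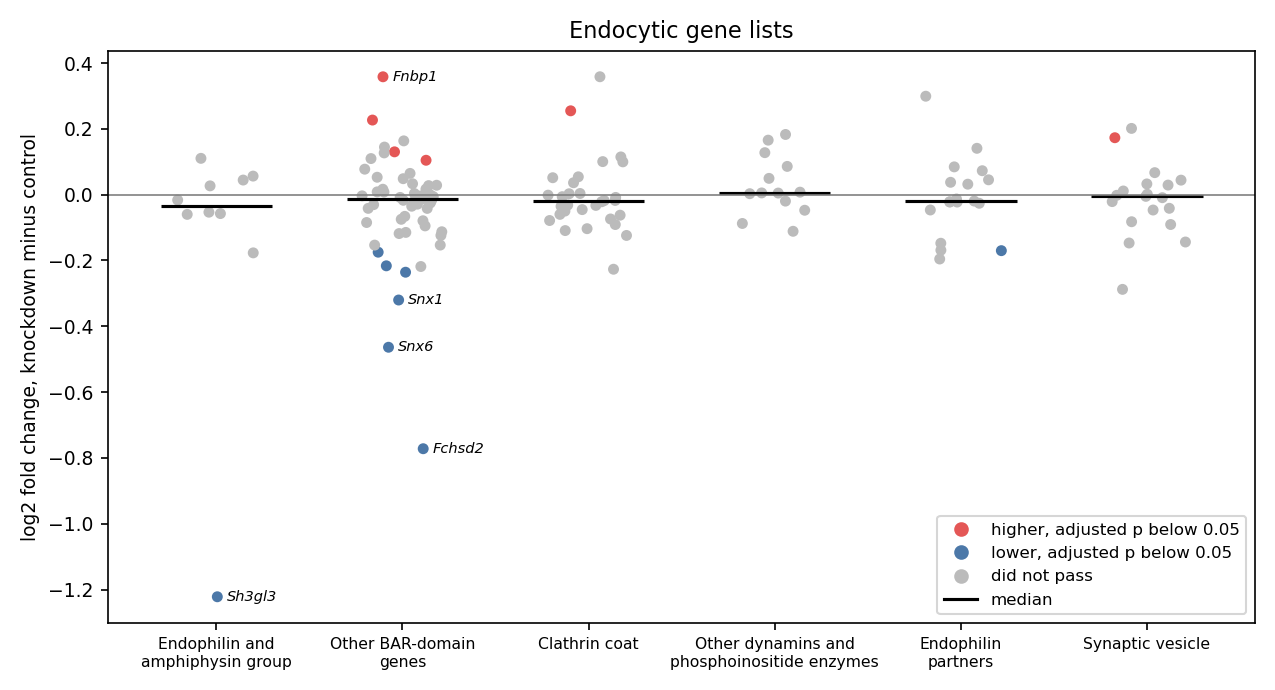
Log2 fold change, knockdown minus control (vertical axis), of each tested gene in the described group and the 5 other endocytic lists (horizontal axis), with red for higher and blue for lower at an adjusted p below 0.05, grey for genes that did not pass, and black lines for medians. Medians lie between -0.03 and 0.01 in all 6 columns, and Sh3gl3 at -1.22 and Fchsd2 at -0.77 are the lowest points.

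Across the 6 arrays the genes most like Sh3gl3 by Pearson correlation were Commd8, Rnf217, Ttc9b, Pold3 and Zc4h2 (r = 0.9983 to 0.9996). The arrays form the 2 groups compared, so these values mostly restate that difference and carry no p. Their log2 fold changes of -0.44, -0.17, -0.45, -0.20 and -0.60 were smaller in size than that of Sh3gl3. The 3 tested genes before Sh3gl3 on chromosome 7 were Tm6sf1, Hdgfl3 and Bnc1, and the 3 after it Adamtsl3, Efl1 and Mex3b. Their log2 fold changes were -0.17 to 0.02, and 0 of the 6 passed in limma, against 9.64% of all genes. The smallest adjusted p was 0.0713, for Tm6sf1. An unadjusted p below 0.05 was found for 2 of the 6, Tm6sf1 and Adamtsl3, against 24.6% of all genes.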

How the data were processed

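RNA was profiled on 6 one-colour arrays, 3 per group, after amplification to amino allyl RNA and Cy5 coupling, per the labels' protocols. Per the file headers, the deposited intensity is a spot median at 635 nm, with 3 scanner gains combined through least-squares lines. Which scanner software was used is not stated in the labels or headers. The authors' processed intensity values, compared with the scanner values, equalled a factor per array times the spot signal above the blank-spot mean (100% of values within 1), with a median of 25. They were used as log2 of the value plus 1, leaving out probes with an empty value on any array.

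The normexp correction was applied with no local background (offset 50), and values were quantile normalized and averaged per probe as log2 values in limma 3.58.1 (statmod 1.5.0, R 4.3.3), and figures were drawn with matplotlib 3.10.9. A probe was tested if its signal lay 2 SD or more above the blank-spot mean on at least 3 arrays, which left 20957 probes, and 1 probe flagged at every gain was left out. Genes were named from the platform annotation and represented by their brightest probe. Groups were compared with lmFit and eBayes (trend) with Benjamini-Hochberg adjustment over 17390 genes, which was checked on simulated data.

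The members and lists were chosen with earlier results of these data known. Named genes were Chd7, all members, of each list up to 8 genes that passed or at least the 2 with the smallest p, and the 5 genes most like Sh3gl3. Of 150 listed pathway genes 135 were tested and the others were not analysed here. Promoter windows are from RefSeq (GRCm38.p6), and 9 of 10 members matched. The labels give both groups the replicate numbers 1 to 3. Same-numbered samples deviated together from their group means (correlations of 0.37, 0.39 and 0.22), so the numbers may pair the samples, as inferred from the data. Results blocked by replicate number are printed for the counts and for some genes whose call changed. By the gain slopes in the headers the arrays fell into 2 sets, one with controls 1 and 2 and knockdown 2, the other with the remaining 3 arrays.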

Additional observations from a re-analysis of the deposited data

How the results depend on the processing

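Sh3gl3, chosen on this same contrast, is given as a description only, with log2 fold changes of -1.53 (authors' values) to -1.13 over 22 alternatives. In each of them 1 member passed, except without control replicate 3, where 2 did (leaving out each array gave 1 to 2). The sign of Sh3glb2, Bin1 and Synj1 turned in at least 2 alternatives each. Over all genes 1677 passed (46.6% higher), against 1093 in the authors' values (356 higher and 737 lower), 2577 with the replicate block, 798 without both arrays numbered 1, 2688 at an adjusted p below 0.1, and 751 to 1462 without 1 array. The 13 genes of the 5 other lists became 22 with the replicate block, 4 without both arrays numbered 1, 20 at an adjusted p below 0.1 and 6 to 11 without 1 array. The block changed no call among the 10 members. Within the gain sets, an alternative chosen after seeing the data, where a lone array is assumed to vary like the others, 31 and 15 genes passed, and 0 and 0 of the 5 lists in limma, with 18 and 19 at an unadjusted p below 0.05. The cause of these differences was not tested. Changes of probes near the blank level are compressed by the offset.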
